A study of Oryza sativa with 24 samples.

Results

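The genotype by temperature interaction was examined in developing rice inflorescences (Oryza sativa, line 9522) taken at a length of 3 mm. It used 12 of the 24 libraries of the series, chosen by their labelled length, in 4 groups of 3: the tap mutant at high temperature, wild type (WT) at high temperature, tap at low temperature and WT at low temperature. The interaction is the difference of tap and WT at high temperature minus their difference at low temperature, on the log2 scale. The 12 libraries of 2 mm inflorescences, grouped the same way, served as the comparison. No label or file states the degrees, how long each treatment lasted, or which listed locus carries the tap mutation, so the level of the mutated locus was not analysed here. The sample titles call the mutant ild. The high-temperature count columns of the mutant are named iHT and were read as tap, since the remaining columns of that temperature carry WT in their names.

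A rice inflorescence, the panicle, grows by laying down branch meristems that later turn into spikelet meristems, each of which makes the floret that will bear a grain. Temperature during these steps affects how many branches and spikelets form, and a mutant that is defective at 1 temperature can look normal at another. In such a mutant an interaction marks the transcripts whose genotype difference depends on temperature, as opposed to transcripts that differ between the genotypes to the same extent at each temperature. The series title gives the mutated gene as THERMO-SENSITIVE BARREN PANICLE (TAP).

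The 3 mm libraries held 20017383 to 21305381 counts (high temperature) against 20410115 to 20760671 (low temperature). Their scaling factors (TMM) did not overlap, at 0.905 to 0.972 for high against 1.03 to 1.06 for low temperature. Between 2346 and 2937 loci were at 0 in each high-temperature library, against 793 to 976 in each low-temperature one. Every listed locus has at least 10 counts summed over the 12 low-temperature libraries of the series, while 723 are at 0 in all 12 high-temperature libraries. The list thus holds no locus counted at high temperature alone, and shares higher or lower at high temperature describe this list only. The labels do not say whether the high- and low-temperature sets were grown, sequenced or counted together, so set and temperature cannot be told apart. The identifiers in the table (of the form LOC_Os03g42130, where the digits after Os give the chromosome) are not paired with gene names in the files, and 0 of 26480 matched the RefSeq gene table provided, so no gene function is stated. For the same reason the labelled tissue could not be checked against marker genes.

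The 12 libraries fell into their 4 groups, and the temperature at which tap and WT lay farther apart differed between components. The first principal component of log2 CPM (CPM, counts scaled to a common library size with TMM) took up 72.7% of the variance. High-temperature libraries had scores of 94.45 to 113.6 on it, and low-temperature libraries -112.8 to -99.9. The second held 12.9%, and tap and WT lay farther apart on it at high temperature. On it tap libraries at high temperature lay between 53.64 and 65.14 and WT libraries at high temperature between -66.15 and -57.88, while at low temperature tap lay between 18.13 and 21.44 and WT between -16.63 and -15.81. On the third component, with 4.45% of the variance, the order of the genotypes was turned round between temperatures. The genotypes lay farther apart on it at low temperature. There tap lay above WT at high temperature (7.561 to 13.02 against -11.73 to -9.659) and below it at low temperature (-36.71 to -30.65 against 28.44 to 44.41).

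**Figure D1:**
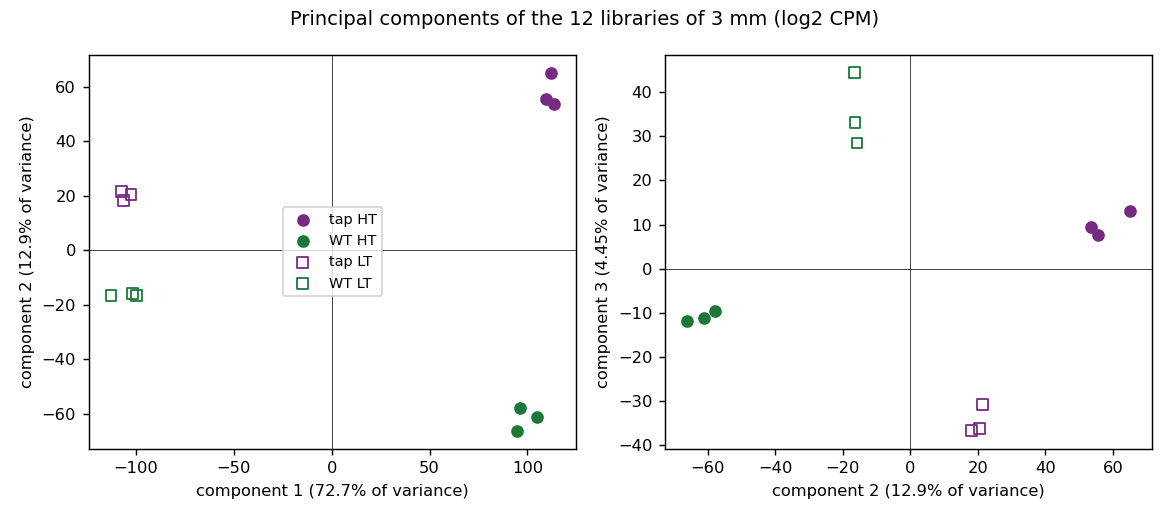
Principal components of the 12 libraries of 3 mm, from log2 CPM; each point is 1 library, filled circles are high temperature (HT) and open squares low temperature (LT), purple is tap and green is WT. Tap and WT are farther apart on component 2 at HT than at LT. On component 3 they are farther apart at LT, and their order differs between temperatures.

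The question of the comparison was whether the effect of the tap mutation on each transcript depended on temperature. The interaction was called at 6235 of 23658 loci tested, 26.4% (edgeR quasi-likelihood F test, Benjamini-Hochberg adjusted p under 0.05 over all loci). It was above 0 at 3392 loci (14.3%), where tap stood higher relative to WT at high than at low temperature, and below 0 at 2843 loci (12%). The median interaction over all tested loci was 0.00353 on the log2 scale, a value that the TMM scaling centres, and -0.0376 with library totals alone. In bulk tissue, fewer cells of a type and less RNA per cell cannot be told apart as the source of a lower level, here and in the results that follow. No label says that replicates were separate plants, so the spread behind the p-values is that of these libraries and may be technical.

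Most interactions were moderate in size. The median size among called loci was 0.857 log2 units for positive and 0.721 for negative interactions, with median standard errors of 0.195 and 0.183. Positive interactions reached larger sizes. Of the positive ones 1411 exceeded 2-fold, 498 exceeded 4-fold and 213 exceeded 8-fold, against 893, 302 and 130 of the negative ones. A test against a change of 1.5-fold (edgeR glmTreat, adjusted p under 0.05) called 866 positive interactions (3.66% of loci) and 525 negative ones (2.22%). The share and size of the interactions called varied with the level of the locus. Among loci with a mean above 100 CPM at 3 mm 37.3% were called, with a median size of 0.56, while among loci of at most 1 CPM 9.9% were called, with a median size of 2.99. The median standard error of the interaction was 0.14 above 100 CPM and 0.963 at or below 1 CPM.

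The loci with positive interactions took up more of the RNA in tap than in WT at high temperature, and less at low temperature. They held 25.3% ± 1.71 (SD, n = 3) of the counts in tap and 17.7% ± 0.707 in WT at high temperature, and 20.6% ± 0.138 in tap and 23% ± 0.195 in WT at low temperature. Loci with negative interactions held 12.2% ± 0.947 in tap and 17.7% ± 0.67 in WT at high temperature, and 15.3% ± 0.0814 in tap and 13.5% ± 0.152 in WT at low temperature. These shares describe the called loci in the libraries that were used to call them.

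The genotype difference behind an interaction was mostly one called at high temperature. Over all tested loci, tap and WT differed at 8776 loci (37.1%) at high temperature, where tap was higher at 19.3% and lower at 17.8% of loci, and at 2768 (11.7%) at low temperature, where it was higher at 5.52% and lower at 6.18%. Of the 6235 loci with an interaction, 4205 (67.4%) were called different between tap and WT at high temperature and not at low temperature, with 2235 positive and 1970 negative interactions. In the 2235 the median difference of tap and WT was 0.725 log2 units at high temperature and -0.0859 at low temperature. In the 1970 it was -0.652 at high and 0.0915 at low temperature. Replicate spread was unequal. The median SD of log2 CPM was 0.163 in tap and 0.131 in WT at high temperature, against 0.0849 and 0.122 at low temperature. With group weights (limma-voom) 7436 differences were called at high and 3739 at low temperature. Interactions of the high-temperature-only kind then numbered 3632 and of the low-temperature-only kind 960, so the order held with a smaller gap.

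The remaining interactions fell into smaller classes. Tap and WT were called different at low temperature and not at high temperature at 756 loci (12.1%), and in opposite directions at 439 loci (7.04%). Of the 439, 261 were higher in tap at high temperature and lower in tap at low temperature, with median differences of 0.607 and -0.594, and 178 showed the reverse, with medians of -0.523 and 0.456. A further 250 loci were called in the same direction at each temperature. At 199 of these the difference was larger at high temperature and at 51 larger at low temperature. At 585 loci neither difference passed by itself. Counts that rest on the low-temperature difference depended on single libraries. Without replicate 3 of tap at low temperature the low-temperature difference was called at 1784 loci, and 486 interactions were then of the low-temperature-only kind and 261 of the opposite kind. Without replicate 1 of WT at low temperature these counts were 1802, 498 and 259, and 166 loci in place of 250 were called in the same direction at each temperature. Without replicate 2 of tap at low temperature 270 were of the opposite kind. The high-temperature counts moved too. Without replicate 2 of tap at high temperature 6904 high-temperature differences were called, and 3162 interactions were of the high-temperature-only kind.

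**Figure D2:**
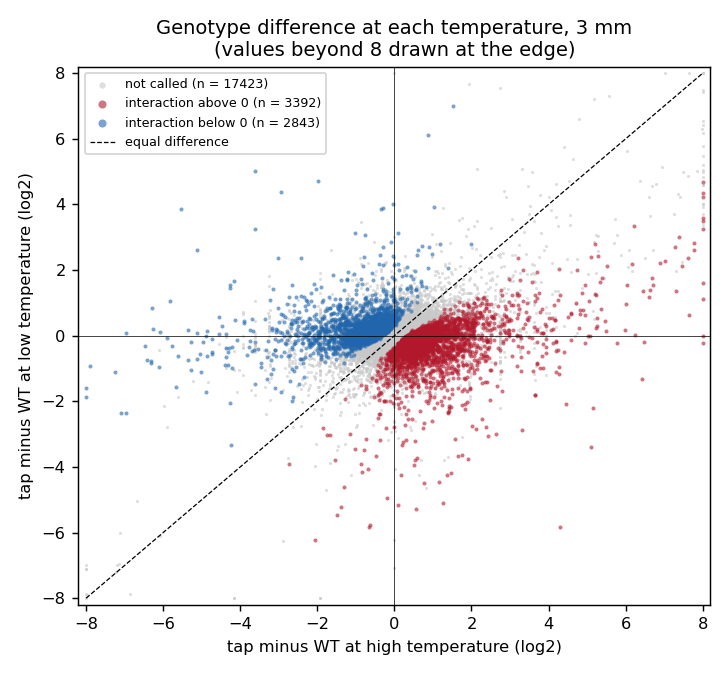
Difference of tap and WT (log2) at high temperature on the x axis and at low temperature on the y axis for each tested locus of 3 mm inflorescences; red and blue mark loci with an interaction above and below 0. The called loci spread along the x axis, where 4205 of 6235 were called different at high temperature alone, and the dashed line marks an equal difference at each temperature.

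The same loci can be read as a difference between the genotypes in the difference between high- and low-temperature libraries, which compares the 4 groups along the other side. High and low temperature differed at 16222 loci (68.6%) in tap, higher at high temperature at 32.9% and lower at 35.7% of loci. They differed at 15556 loci (65.8%) in WT, higher at 30.8% and lower at 35%. Among the loci with an interaction, 1825 (29.3%) had a temperature difference called in tap alone. Of these, 1057 were higher at high temperature in tap, with a median of 0.924 log2 units against -0.0432 in WT, and 768 were lower in tap, with a median of -0.803 against 0.0305 in WT. A temperature difference called in WT alone was seen at 1490 loci (23.9%). At 741 of these WT was lower at high temperature, with a median of 0.022 in tap against -0.886 in WT, and at 749 WT was higher, with a median of -0.0218 in tap against 0.65 in WT.

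Where the temperatures differed in each genotype at loci with an interaction, the differences were unequal or opposite, as the call itself requires. They had the same direction and were larger in tap at 1194 loci (19.1%), and larger in WT at 1083. At 591 loci (9.48%) they had opposite directions. Of these, 339 were higher at high temperature in tap and lower in WT, with medians of 0.592 and -0.632, and 252 were lower in tap and higher in WT, with medians of -0.588 and 0.553. At 52 loci neither response passed by itself. Because set and temperature cannot be told apart, a step of processing that acted differently on the 2 sets would enter both responses, and its part in them was not tested.

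**Figure D3:**
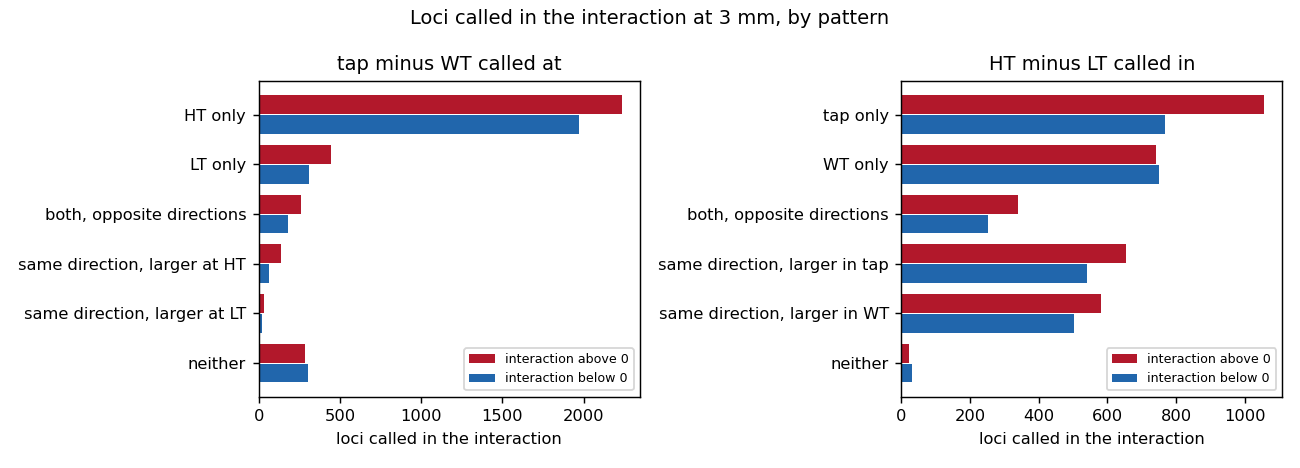
Numbers of loci called in the interaction at 3 mm, split by where the difference of tap and WT was called (left) and by where the difference of high (HT) and low (LT) temperature was called (right); red bars are interactions above 0 and blue bars below 0. The difference of tap and WT was most often called at HT only, while responses to temperature were divided more evenly between tap only, WT only and shared directions.

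Another description asks whether 1 group stood clear of the other 9 libraries of 3 mm. For positive interactions, all 3 tap libraries at high temperature lay above the other 9 at 1427 of 3392 loci (42.1%), and all 3 WT libraries at high temperature lay below the other 9 at 1212 (35.7%). Over all tested loci these shares were 11.5% and 9.01%. At low temperature, tap lay below the other 9 at 637 loci (18.8%, against 6.08% of all loci) and WT lay above them at 413 (12.2%, against 5.99%). For negative interactions, tap at high temperature lay below the other 9 at 998 of 2843 loci (35.1%, against 8.17% of all loci) and WT at high temperature above them at 1119 (39.4%, against 9.79%). Tap at low temperature lay above the other 9 at 470 loci (16.5%, against 6.67%) and WT at low temperature below them at 387 (13.6%, against 5.25%). Among called loci, as over all tested loci, either high-temperature group stood apart more often than either low-temperature group. At high temperature neither genotype stood apart at most of the called loci. The loci were called from these same libraries, and a group that stands apart in the direction of the interaction favours a call. Shares above those of all loci were therefore built in, and nothing is read from them. Near silence in 1 high-temperature group alone was rare. There were 5 loci with at most 1 count in every tap library at high temperature and at least 10 counts in each of the other 9 libraries, and 2 loci with that pattern in WT at high temperature. All of these were called, but such a pattern is itself an interaction. The reverse pattern, at least 10 counts in 1 group and at most 1 elsewhere, was seen at low temperature at 2 loci for tap and 2 for WT, with 0 called. With at most 1 count in each high-temperature library, the genotype difference there could hardly be measured, so nothing is read from the 0 called. The reverse pattern was seen at 0 loci for either genotype at high temperature. The list holds only loci counted at low temperature, which all but keeps such loci out, so nothing is read from this either.

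Loci were named by a rule that asked for at least 10 counts in each of the 12 libraries, a mean of at least 5 CPM in 1 group or more, and tap and WT libraries that did not overlap wherever the genotypes were called different. It took the 2 loci with the largest interaction of each sign in each of 3 classes. The rule could choose among 1731 positive and 1591 negative loci in the class different at high temperature alone, 357 and 279 in the class different at low temperature alone, and 206 and 155 in the class with opposite differences. The fold changes of these loci therefore rest on counts in every library. Each class also held called loci with larger interactions that the rule did not admit, and the named loci say nothing of the size of a typical interaction.

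Among loci different at high temperature alone, LOC_Os05g51130 on chromosome 5 was low in WT at high temperature. It had 14.7, 13.6 and 12.9 CPM in tap at high temperature against 1.22, 1.09 and 0.826 CPM in WT at high temperature. At low temperature it had 11.2, 8.17 and 9 CPM in tap against 9.63, 6.96 and 8.99 CPM in WT. The 3 WT libraries at high temperature lay clear of the other 9, which ranged from 6.96 to 14.7 CPM, and the interaction was 3.56 ± 0.24 (SE, log2; edgeR adjusted p = 6.88e-12). The difference of high and low temperature was 0.54 log2 units in tap (adjusted p = 0.00139) and -3.02 in WT (adjusted p = 1.81e-14).

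LOC_Os03g50210 on chromosome 3 had the largest positive interaction among the loci of the class that the rule admitted, and its size rested in part on 1 library. It had 9.32, 6.74 and 10.7 CPM in tap at high temperature against 1.68, 3.33 and 2.27 CPM in WT at high temperature. At low temperature it had 0.461, 0.554 and 0.656 CPM in tap against 5, 0.888 and 0.946 CPM in WT, so that replicate 1 of WT stood above the other WT libraries there. The difference of tap and WT was 1.88 ± 0.57 at high temperature (edgeR adjusted p = 0.015). At low temperature it was larger in size, -2.03 ± 0.75, but did not pass (adjusted p = 0.0962), so the class of this locus is uncertain. The interaction of 3.91 ± 0.94 (edgeR adjusted p = 0.00541) was 2.59 without that library (adjusted p = 0.0284).

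The negative interactions of the class were of different kinds. LOC_Os04g49370 on chromosome 4 was high in WT at high temperature alone, with 1.29, 1.93 and 1.4 CPM in tap against 74.6, 56.2 and 48.9 CPM in WT. At low temperature it stood at 1.38, 2.91 and 2.63 CPM in tap against 1.84, 2.06 and 4.02 CPM in WT, where the genotypes overlapped. The interaction was -5.09 ± 0.48 (edgeR adjusted p = 1.98e-07). LOC_Os09g32948 on chromosome 9 was instead low in tap at high temperature alone. It had 1.84, 2.65 and 2.28 CPM in tap against 45.5, 41.4 and 46.1 CPM in WT at high temperature. Its low-temperature levels were 50.6, 54.1 and 51.3 CPM in tap against 62, 64.9 and 75.3 CPM in WT. Tap thus lay below WT without overlap at low temperature too, but that difference, -0.37 ± 0.17, did not pass (edgeR adjusted p = 0.166). The interaction was -3.93 ± 0.28 (edgeR adjusted p = 8.04e-10). LOC_Os09g32948 was lower in the high- than in the low-temperature libraries of each genotype (-4.53 log2 units in tap, adjusted p = 2.29e-14, and -0.60 in WT, adjusted p = 0.00327).

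Among the 4 loci named as different at low temperature alone, LOC_Os07g34570 on chromosome 7 had the highest CPM. It had 1063, 880 and 810 CPM in tap against 736.5, 593 and 573 CPM in WT at high temperature. At low temperature the levels were 86.1, 55.3 and 31.3 CPM in tap against 977, 689 and 726 CPM in WT, so tap at low temperature stood below the other 9 libraries. The interaction was 4.32 ± 0.52 (edgeR adjusted p = 1.51e-05), and the difference of tap and WT at high temperature, 0.53 ± 0.35, did not pass (adjusted p = 0.256) although the libraries did not overlap. LOC_Os08g41880 on chromosome 8 likewise was lowest in tap at low temperature, with means of 4.32 ± 0.70 CPM in tap against 40.8 ± 6.67 CPM in WT (SD, n = 3). At high temperature its means were 21.3 ± 4.47 CPM in tap against 18.4 ± 4.76 CPM in WT, and the interaction was 3.45 ± 0.40 (adjusted p = 5.47e-06).

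A pair of loci showed the reverse at low temperature, with tap above WT. LOC_Os01g15900 on chromosome 1 had 4.12, 6.46 and 8.39 CPM in tap against 8.73, 8.06 and 6.51 CPM in WT at high temperature, where the genotypes overlapped. At low temperature the locus had 17, 26.4 and 25.1 CPM in tap against 1.24, 1.87 and 1.47 CPM in WT. The interaction was -4.20 ± 0.45 (edgeR adjusted p = 1.19e-06), and the locus was lower at high than at low temperature in tap (-1.85 log2 units, adjusted p = 7.05e-06) but higher in WT (2.35 log2 units, adjusted p = 7.12e-06). LOC_Os06g51260 on chromosome 6 had 4.76, 8.12 and 12.7 CPM in tap against 14.8, 6.08 and 11.4 CPM in WT at high temperature. In the low-temperature libraries it had 91.7, 99.2 and 99 CPM in tap against 2.25, 10.5 and 7.24 CPM in WT. Tap at low temperature stood clear of the other 9 libraries, and the interaction was -4.20 ± 0.73 (edgeR adjusted p = 0.000468).

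The loci with opposite differences exchanged the places of the genotypes. LOC_Os03g42130 on chromosome 3 had 18.45, 20.2 and 20.6 CPM in tap against 3.96, 4.78 and 3.51 CPM in WT at high temperature. Low-temperature levels were 4.38, 2.95 and 4.88 CPM in tap against 25.1, 25.9 and 19.8 CPM in WT. All 6 libraries of tap at high temperature and WT at low temperature were at 18.45 CPM or above, and the other 6 were at 4.88 CPM or below. The difference of tap and WT was 2.27 ± 0.20 at high temperature and -2.54 ± 0.19 at low temperature, and the interaction was 4.81 ± 0.27 (edgeR adjusted p = 2.02e-13). LOC_Os02g03710 on chromosome 2 followed the same order, with means of 19.5 ± 1.01 CPM in tap against 5.51 ± 1.45 CPM in WT at high temperature and 8.93 ± 0.38 CPM in tap against 42.3 ± 6.51 CPM in WT at low temperature. Its interaction was 4.07 ± 0.31 (edgeR adjusted p = 2.79e-09).

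In the other direction, LOC_Os04g49450 on chromosome 4 had 5.21, 6.35 and 5.49 CPM in tap against 15.3, 9.88 and 13.7 CPM in WT at high temperature. Low-temperature libraries had 15.45, 28.6 and 35.3 CPM in tap against 7.02, 6.54 and 7.24 CPM in WT. The genotypes overlapped at neither temperature, and the interaction was -3.12 ± 0.44 (edgeR adjusted p = 5.23e-05). LOC_Os09g31482 on chromosome 9 had 8.83, 10.8 and 13.3 CPM in tap against 34.6, 23.35 and 23.55 CPM in WT at high temperature. Its levels at low temperature were 76.5, 67.4 and 51 CPM in tap against 14.1, 29.1 and 31 CPM in WT. Its WT levels overlapped between the temperatures while its tap levels did not, and the interaction was -2.70 ± 0.49 (edgeR adjusted p = 0.00067).

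**Figure D4:**
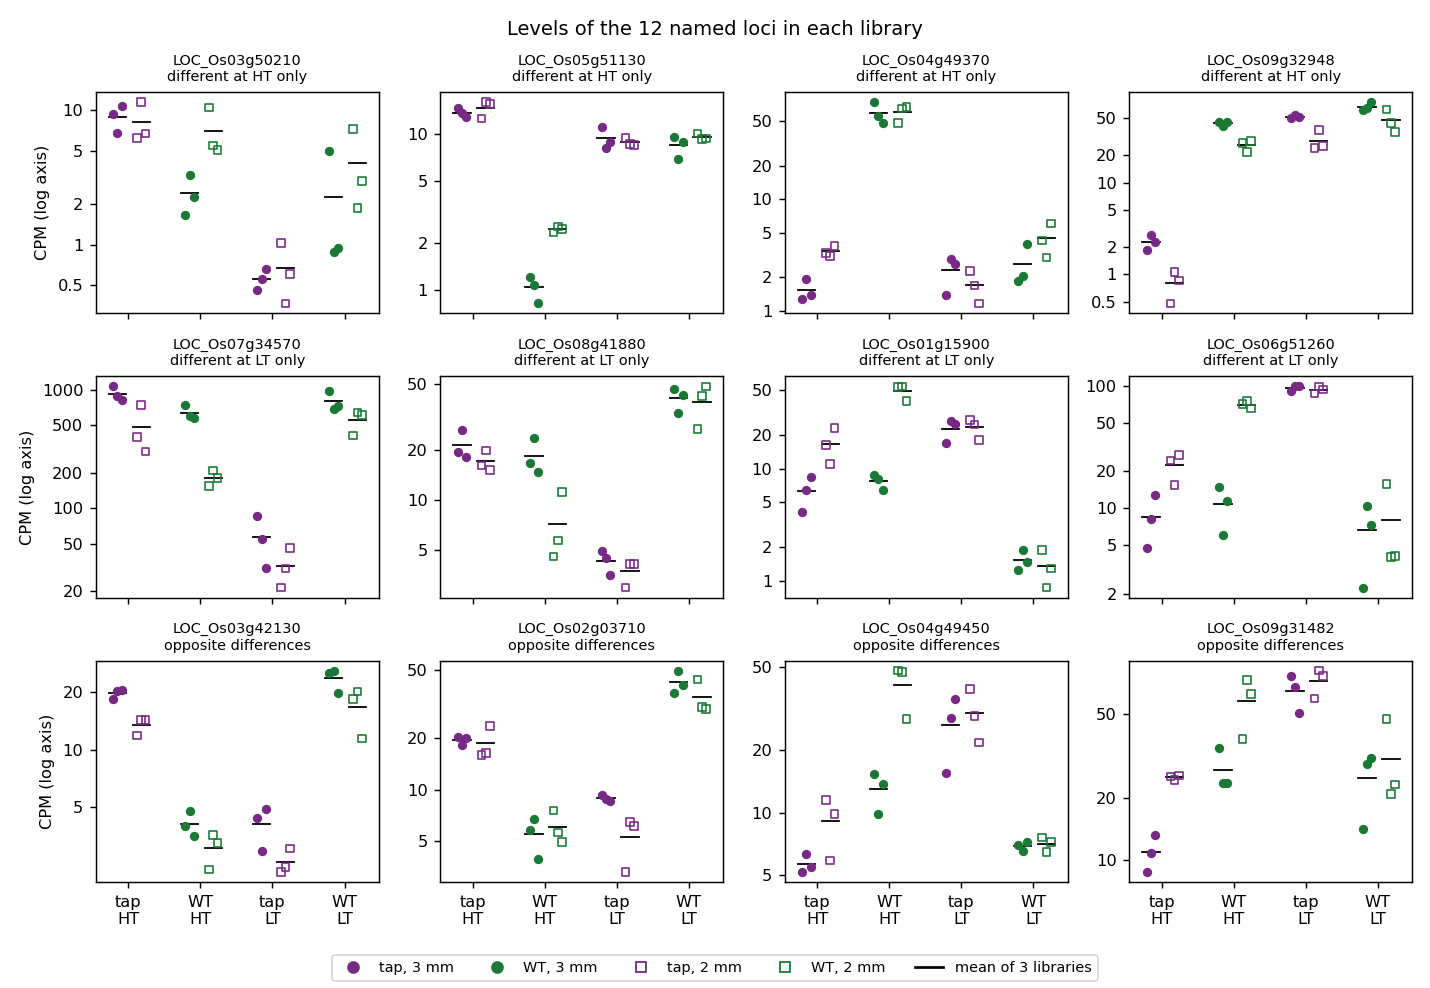
CPM (log axis) of the 12 named loci in each library of tap and WT at high (HT) and low (LT) temperature; filled circles are 3 mm, open squares 2 mm, purple tap, green WT, and black bars means of 3 libraries. In the top row the genotypes separate at HT, in the middle row at LT, and in the bottom row at each temperature in opposite directions, as judged from the 3 mm libraries.

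The interactions were spread over the genome. The share of loci called ran from 23.5% on chromosome 11 to 28.1% on chromosome 1, and positive interactions made up 50.5% (chromosome 6) to 58.4% (chromosome 10) of those called on a chromosome. In windows of 5000 identifier numbers with at least 50 tested loci, 127 in all, the share ran from 15.4% to 35% with a median of 25.6%. Segments known from these libraries for large differences between tap and WT were counted apart. In 3 windows, numbers 0 to 9999 of chromosome 1 and 30000 to 34999 of chromosome 12, 173 of 653 loci were called (26.5%), against 26.4% elsewhere. Those windows held 38 loci that differed more than 4-fold between tap and WT in the same direction at each temperature (5.82% of loci, against 0.383% elsewhere), and 3 of the 38 were called in the interaction, against 26 of 88 elsewhere. The windows were chosen for such loci, and the loci for differing the same way at each temperature, so nothing is read from these counts.

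The interaction at 3 mm was compared with that at 2 mm, measured in 12 other libraries. At 2 mm 6344 loci were called (26.8%), 13.2% above 0 and 13.6% below. With the same sign, 3833 loci were called at each length, which is 61.5% of the 3 mm list and 60.4% of the 2 mm list, and 5 loci were called with opposite signs. The interactions at the 2 lengths correlated with a Pearson r of 0.656 and a Spearman rho of 0.666 over the 23658 loci, a description only, since loci share libraries. Of 800 called loci with an interaction over 4-fold at 3 mm, 763 had the same sign at 2 mm. Their median size in that direction was 2.27 log2 units at 2 mm against 2.81 at 3 mm. They were picked for their size at 3 mm, which favours a smaller median at 2 mm. Among the 2397 loci called at 3 mm alone, 2143 (89.4%) had the same sign at 2 mm. The share with the same sign over all tested loci is not given, so these shares are not read as particular to called loci.

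A direct test of the difference between the 2 interactions called 0 of 23658 loci (0%; edgeR), with a smallest adjusted p of 0.0552 and 2020 loci at an unadjusted p under 0.05. DESeq2 called 87 loci, limma-voom with group weights called 0, and without 3 mm replicate 3 of WT at high temperature edgeR called 43. No locus could thus be named as having an interaction particular to 3 mm, which does not show that the lengths are alike. Each interaction is a difference of 4 groups of 3 libraries, and the test of their difference joins the spread of all 8 groups.

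The classes of loci were carried over to 2 mm to different degrees. At 2 mm the class was set by where tap and WT were called different, whether or not the interaction was called. Of the 4205 loci different at high temperature alone at 3 mm, 67% were so at 2 mm. An interaction of the same sign was called at 2 mm at 57.5% of the 4205. Of the 439 with opposite differences, 49.7% had opposite differences at 2 mm, and 89.7% had such an interaction. Of the 756 different at low temperature alone, 41.8% were in that class at 2 mm and 28.2% had opposite differences there. Such an interaction was called at 75.4% of the 756. The shares of all tested loci in these classes at 2 mm are not given, so nothing more is read from them. Of the 12 named loci, the 4 with opposite differences and LOC_Os05g51130 were in the same class at 2 mm, and the other 7 were not. Among those named as different at high temperature alone, LOC_Os04g49370 and LOC_Os09g32948 were lower in tap at low temperature too at 2 mm (log2 differences of -1.38 and -0.73, edgeR adjusted p = 0.00807 and 0.00485). LOC_Os03g50210 was at 2 mm different at low temperature alone, with a difference of 0.21 ± 0.52 (SE) at high temperature (edgeR adjusted p = 0.793) and -2.58 ± 0.69 at low temperature (adjusted p = 0.0169). The 4 loci named as different at low temperature alone all had opposite differences at 2 mm. LOC_Os01g15900 averaged, in 2 mm inflorescences at high temperature, 16.8 ± 6.11 CPM in tap against 49.5 ± 7.90 CPM in WT (SD, n = 3; log2 difference -1.56 ± 0.26 SE, edgeR adjusted p = 8.32e-05). LOC_Os06g51260 had means there of 22.4 ± 6.11 CPM in tap against 70.5 ± 4.68 CPM in WT (-1.65 ± 0.46, adjusted p = 0.00964). LOC_Os07g34570 had means of 481 ± 233 CPM in tap against 180.5 ± 27.1 CPM in WT (1.41 ± 0.36, adjusted p = 0.00544), and LOC_Os08g41880 at 17.1 ± 2.45 CPM in tap against 7.18 ± 3.53 CPM in WT (1.25 ± 0.29, adjusted p = 0.00235). The test of the difference between the lengths called none of the 12 named loci, with adjusted p of 0.518 to 0.887 for these 4.

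**Figure D5:**
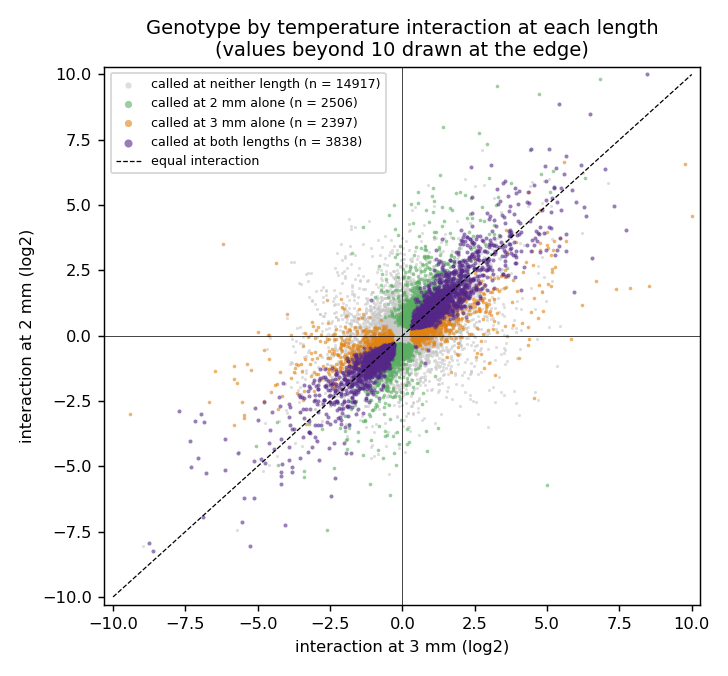
Interaction (log2) at 3 mm on the x axis and at 2 mm on the y axis for each tested locus, coloured by the length at which it was called; the dashed line marks equal interactions. Loci called at both lengths lie along the line, a place that being called at both favours. Over all 23658 loci, called or not, Pearson r was 0.656. Loci called at 3 mm alone mostly had the same sign at 2 mm.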

How the data were processed

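Per the labels' protocols, an RNeasy kit gave the RNA and a SMARTER mRNA-Seq kit the libraries. Trimmomatic, HISAT2 and HTSeq were used with genome build IRGSP-1.0, per the submitters' processing notes; no source used here gives versions, the annotation release or the strand setting, so overlapping, antisense and near-identical loci cannot be told apart. The authors deposited raw read counts per locus as 1 table of 26480 loci. Of these, 70 carry no high-temperature value (at most 0.224% of a library) and were left out.

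Counts of all 24 libraries were fitted in edgeR 4.0.16 (limma 3.58.1, R 4.3.3) with TMM scaling, the filterByExpr filter (23658 loci kept), 1 mean per group, robust quasi-likelihood F tests and 16 residual degrees of freedom. Benjamini-Hochberg adjustment ran over all tested loci of a contrast, with calls under 0.05. Standard errors are the log2 value divided by the square root of F. Principal components used a prior count of 2. Pairs of replicates within a group differed beyond sampling noise (chi-square per degree of freedom 3.39 to 30.8). The highest values, 30.8 and 20.2, came from pairs with replicate 2 of tap at high temperature. The script was tested on simulated data. Alternatives were other scalings, filters, DESeq2 1.42.0, limma-voom, a replicate block, the 12 libraries of 3 mm alone, a test against a 1.5-fold change, and leaving out each 3 mm library. The groups, lists, windows and naming rule were chosen with earlier results of these data known. Planned lists of flower, hormone, heat, cold, clock and tissue marker genes could not be matched to identifiers and were not used.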

Additional observations from a re-analysis of the deposited data

Results flagged for a closer look

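The interaction at 3 mm is itself a test that the difference of tap and WT is not the same at the 2 temperatures, and it called 6235 loci. The named loci were chosen among those called by this test (edgeR, adjusted over all loci), so their values are a description. Of the loci different at high temperature alone, the interaction was 3.91 at LOC_Os03g50210, 3.56 at LOC_Os05g51130, -5.09 at LOC_Os04g49370 and -3.93 at LOC_Os09g32948 on the log2 scale. Of those different at low temperature alone, it was 4.32 at LOC_Os07g34570, 3.45 at LOC_Os08g41880, -4.20 at LOC_Os01g15900 and -4.20 at LOC_Os06g51260. Of those with opposite differences, it was 4.81 at LOC_Os03g42130, 4.07 at LOC_Os02g03710, -3.12 at LOC_Os04g49450 and -2.70 at LOC_Os09g31482. Apart from these, 70 loci were counted in the low-temperature libraries and carry no value at high temperature, so no interaction could be computed for them.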

How the results depend on the processing

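The count of interactions at 3 mm was 5578 to 6688 under 8 alternatives of processing, against 6235, and 5136 (without replicate 2 of tap at low temperature) to 6530 (without replicate 1 of tap at high temperature) when each 3 mm library was left out; 1391 passed the test against a 1.5-fold change. With the same sign, 4874 loci (78.2%) were called in all 8 alternatives and 3873 (62.1%) in all 12 fits that left out a library. No call changed sign. Library totals in place of TMM gave 49.3% positive calls, against 54.4%. All 12 named loci kept their direction and call in each alternative and each left-out library. The difference between the interactions at 3 mm and 2 mm, called at 0 loci, was called at 7 with library totals, 3 without a filter, 30 with the replicate block and 87 with DESeq2, and at 0 to 43 with a library left out; the cause was not tested. The count of low-temperature differences between tap and WT ran from 1784 to 3198 with a library left out, of high-temperature differences from 6904 to 8853, and of temperature differences from 15382 to 16396 in tap and from 14507 to 16009 in WT. Group weights (limma-voom) gave 3739 low-temperature and 7436 high-temperature differences between tap and WT. With tap and WT libraries of the same replicate number, length and temperature in a replicate block, 6488 interactions were called at 3 mm. Replicate numbers do not mark a stated pairing. Deviations of same-numbered tap and WT libraries correlated at -0.21 to 0.26, above 0.1 in 4 of 12 pairs, all 4 at high temperature. A differently numbered pair, replicate 3 of tap and replicate 1 of WT at 3 mm and high temperature, reached 0.34. At low levels, larger standard errors limited what could be called.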
